A study of Mus musculus with 6 samples.

Results

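The Wnt ligands of the colonic stroma were followed here in cancer-associated fibroblasts (CAFs) of colonic adenomas. The 10 members, Wnt2, Wnt2b, Wnt3, Wnt4, Wnt5a, Wnt5b, Wnt6, Wnt9a, Wnt10a and Wnt11, were taken by gene symbol from a table of 49548 genes, and each of them had at least 1 normalized count in some library. They are 10 of the 19 Wnt genes of the mouse, and the remaining 9 are described with the rest of the pathway. The CAFs came from Col6a1-cre, Rosa26-mTmG mice of the C57/BL6 strain, young adults of both sexes that had received the carcinogen azoxymethane (AOM) and then cycles of the colitis-inducing detergent dextran sodium sulfate (DSS). Adenomas were digested, cells with CD45, EpCAM, CD31 or Ter119 were gated out, and the remainder was sorted by reporter into Col6a1+ CAFs (GFP+, 3 libraries) and Col6a1- CAFs (Tomato+, 3 libraries). All 6 libraries shared the Cre, the reporter and the AOM/DSS treatment, and each was a pool of tumors from several mice. In the mTmG reporter, Cre activity replaces membrane Tomato with membrane GFP for good, so that GFP marks cells, and descendants of cells, in which the Col6a1 promoter fragment of the transgene had been active. According to the study, this Cre labels mainly fibroblasts with high PDGFRα and perivascular cells of the intestine, and the Tomato+ gate holds the remaining stromal cells.

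Wnt proteins are secreted lipid-modified glycoproteins that act over short distances. One branch of the pathway runs through Frizzled receptors and the co-receptors Lrp5 and Lrp6 to stabilize β-catenin, which drives transcription with factors of the TCF/LEF family and maintains the stem cells at the base of the crypt. The other branch, often called non-canonical, runs through Frizzled, Ror and Ryk receptors to the cytoskeleton and planar cell polarity. In the gut, stromal cells are a major source of both kinds of ligand, and R-spondins from the same compartment prolong the life of Frizzled at the cell surface.

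The libraries were 3′ end counts scaled by the authors, with sums of 3039152 to 3425249 normalized counts. Col6a1+ replicate 1 stood apart, with 14530 genes at 1 normalized count or more against 18770 to 20511 in the other 5 libraries, and it held 0 for 6 of the 10 ligands (Wnt2, Wnt2b, Wnt3, Wnt6, Wnt10a and Wnt11). The summed counts of 6 pan-fibroblast markers ranged from 37468 to 41177 in Col6a1+ CAFs and from 6799 to 13785 in Col6a1- CAFs. Those of 14 epithelial markers ranged from 5936 to 6548 in Col6a1+ and from 20524 to 34925 in Col6a1- CAFs, although EpCAM+ cells had been gated out, and 9 of the 14 were lower in Col6a1+ CAFs (limma adjusted p under 0.05). Epcam itself had 615 to 1074 normalized counts in Col6a1+ and 3107 to 4129 in Col6a1- CAFs. The sums of 7 pericyte markers were 36236 to 52319 against 432 to 932, with Higd1b at 0 in every Col6a1- library, and all 7 were higher in Col6a1+ CAFs by the same test. For 6 smooth muscle markers the sums were 12262 to 24902 against 467 to 2233. The 6 telocyte markers summed to 1244 to 2253 against 869 to 1020, and the 6 trophocyte markers to 1025 to 2081 against 2699 to 4444. The 10 immune markers summed to 71 to 90 against 507 to 910, with Cd3e at 0 in every Col6a1+ library and Cd79a in every Col6a1- library. Most of the Col6a1- sum came from S100a8 (211, 387 and 167) and S100a9 (229, 391 and 162), the 2 immune markers that passed, while Ptprc had 7, 8 and 3 there. Summed endothelial markers (203 to 380 against 199 to 479), erythroid markers (110 to 1713 against 281 to 482) and glial markers (55 to 73 against 29 to 76) overlapped between the subsets. Of the 8 endothelial markers, Tie1 was higher in Col6a1+ CAFs (220, 56 and 152 against 1, 7 and 21, limma adjusted p = 0.027). The other 7 had negative log2 fold changes and did not pass. Because these are bulk samples, fewer cells of a type and less RNA per cell cannot be told apart, and the part of cell makeup in any difference below was not tested.

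To ask whether the CAF subsets carry different Wnt ligands, each gene's log2 fold change was taken as the mean of log2(normalized count + 1) in Col6a1+ minus that in Col6a1- CAFs and tested with limma, two-sided, over 26402 genes. Positive values are higher in Col6a1+ CAFs, and the added 1 understates the change of genes with few counts. Of the 10 ligands, 1 was higher in Col6a1+ CAFs (Wnt5a), 2 were lower (Wnt6 and Wnt10a) and 7 did not pass an adjusted p of 0.05. Of all genes tested, 2.66% passed as higher and 1.96% as lower. The ranges of the subsets did not overlap for 1 ligand in the higher direction (Wnt5a) and for 3 in the lower (Wnt2, Wnt6 and Wnt10a), while 7.91% and 11.6% of all genes did so. The median log2 fold change of the ligands was -0.90, beside -0.27 for all genes tested. Over genes averaging 10 or more normalized counts it was -0.28 for 8 ligands, beside -0.15 for all such genes. At an unadjusted p under 0.05, 5 of the 10 ligands passed in either direction, beside 16.0% of all genes. Without Col6a1+ replicate 1 all 3 called ligands still passed (limma adjusted p = 0.0169 to 0.032). The replicate number may mark a shared pool of mice. When it entered as a block, none of the 3 passed (limma adjusted p = 0.0974 to 0.115). In that fit 0 genes of the table passed, with 4418 at an unadjusted p under 0.05. Restricting the blocked fit to genes that averaged 10 or more normalized counts brought all 3 past the threshold (limma adjusted p = 0.00533 to 0.00966).

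**Figure D1:**
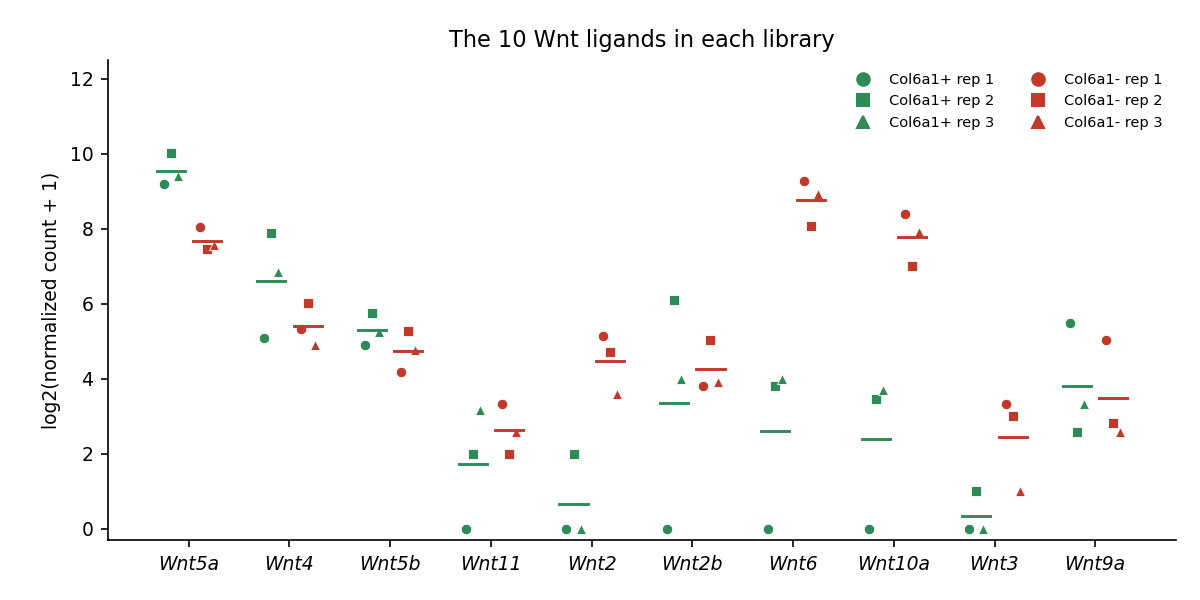
Level of each of the 10 Wnt ligands in the 3 Col6a1+ (green) and 3 Col6a1- (red) CAF libraries, as log2(normalized count + 1) on the vertical axis. Symbols mark the replicate number and horizontal bars the mean of 3 libraries. Wnt5a sits higher in every Col6a1+ library, and Wnt2, Wnt6 and Wnt10a sit lower, while the other ligands overlap.

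Added over the 10 ligands, the Wnt counts overlapped between the subsets, with 695, 1429 and 884 in Col6a1+ and 1366, 742 and 1007 in Col6a1- CAFs, while the mixture of ligands differed. QuantSeq reads the 3′ end of a transcript, so counts are not divided by gene length, and an order of ligands within a library is one of 3′ end counts. In Col6a1+ CAFs, Wnt5a made up 84.7%, 72.7% and 76.2% of the ligand counts. In Col6a1- CAFs it made up 19.2%, 23.5% and 18.6%. Wnt6 took the leading share there, with 45.1%, 35.8% and 48.6%, and had 0%, 0.91% and 1.70% in Col6a1+ CAFs. In Col6a1+ replicate 1, a count of 0 allows a share of up to 0.432%, counting error only. Wnt10a took 24.5%, 17.1% and 23.8% in Col6a1- and 0%, 0.70% and 1.36% in Col6a1+ CAFs. By mean normalized count, the order in Col6a1+ CAFs was Wnt5a, Wnt4, Wnt5b, Wnt2b, Wnt9a, Wnt6, Wnt10a, Wnt11, Wnt2 and Wnt3, and only the step from Wnt5a to Wnt4 was one between ranges that did not overlap. In Col6a1- CAFs the order was Wnt6, Wnt10a, Wnt5a, Wnt4, Wnt5b, Wnt2, Wnt2b and Wnt9a, followed by Wnt3 and Wnt11 at the same mean. There, only the step from Wnt5a to Wnt4 was clear of overlap between neighbors.

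Among the ligands known mainly for the non-canonical branch, Wnt5a (ENSMUSG00000021994, mm10 chr14:28504750-28527447, plus strand) signals through Ror receptors and is made by subepithelial cells near the crypt top. It had 589, 1039 and 674 normalized counts in the Col6a1+ libraries and 262, 174 and 187 in the Col6a1- libraries. No Col6a1- library came near the lowest Col6a1+ value. The log2 fold change was 1.86 (standard error 0.32, 95% interval 1.14 to 2.58, limma adjusted p = 0.0105). The adjusted p was 0.0974 with the replicate block and ran from 0.00192 to 0.116 over 14 alternatives. It passed without Col6a1+ replicate 1 (0.032) but not when any other single library was left out (0.06 to 0.116), with log2 fold changes of 1.62 to 2.04 over these fits. Set against other stromal transcripts of the same library, Wnt5a no longer separated the subsets, a comparison chosen after seeing the data. Per 1000 pan-fibroblast marker counts it stood at 15.7, 25.5 and 16.4 in Col6a1+ and at 19.0, 12.8 and 27.5 in Col6a1- CAFs. Per normalized count of Pdgfra, the receptor that marks the intestinal fibroblasts and itself higher in Col6a1+ CAFs (limma adjusted p = 0.00588), it stood at 0.514, 0.829 and 0.834 against 0.755, 0.747 and 0.921. The ranges overlapped on both scales. Both divisors were higher in every Col6a1+ library, so these scales could only narrow or reverse the gap. Pdgfra is also among the 6 pan-fibroblast markers, so the scales are not independent.

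Wnt4 (ENSMUSG00000036856, chr4:137277489-137299726, plus strand), which can act through either branch, was the next ligand by mean count in Col6a1+ CAFs. It had 33, 235 and 114 normalized counts in Col6a1+ and 39, 64 and 29 in Col6a1- CAFs. The lowest Col6a1+ value was replicate 1 and fell inside the Col6a1- range. Its difference did not pass (log2 fold change 1.19, standard error 0.67, limma adjusted p = 0.434, 0.0878 to 1 over 14 alternatives), and the 95% interval of -0.30 to 2.68 includes values larger than that of Wnt5a. Per 1000 pan-fibroblast marker counts, Wnt4 stood at 0.881, 5.77 and 2.77 against 2.83, 4.72 and 4.27, a scale that could only narrow or reverse its gap.

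Wnt5b, a close relative of Wnt5a, and Wnt11, which acts in tissue movements of the embryo, were low in both subsets. Wnt5b (ENSMUSG00000030170, chr6:119432531-119544347, minus strand) had 29, 53 and 37 normalized counts in Col6a1+ and 17, 38 and 26 in Col6a1- CAFs (log2 fold change 0.57, 95% interval -0.70 to 1.83, limma adjusted p = 0.642), values that overlapped. Its locus overlaps Fbxl14 on the other strand, which had 45 to 86 normalized counts, and the sources used here do not give whether strand was used in counting, so the level of Wnt5b is uncertain. Beside its relative, Wnt5b had 0.0492, 0.0510 and 0.0549 counts per count of Wnt5a in Col6a1+ CAFs and 0.0649, 0.218 and 0.139 in Col6a1- CAFs. This ratio was lower in every Col6a1+ library, where Wnt5a was higher, while the percentage of Wnt5b among the counts of the 10 ligands overlapped (3.71 to 4.19 against 1.24 to 5.12). Wnt11 (ENSMUSG00000015957, chr7:98835112-98855195, plus strand) had 0, 3 and 8 against 9, 3 and 5, values near the limit of 3 counts that a level of 0 allows, and did not pass (log2 fold change -0.91, 95% interval -3.31 to 1.49, limma adjusted p = 0.642).

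**Figure D2:**
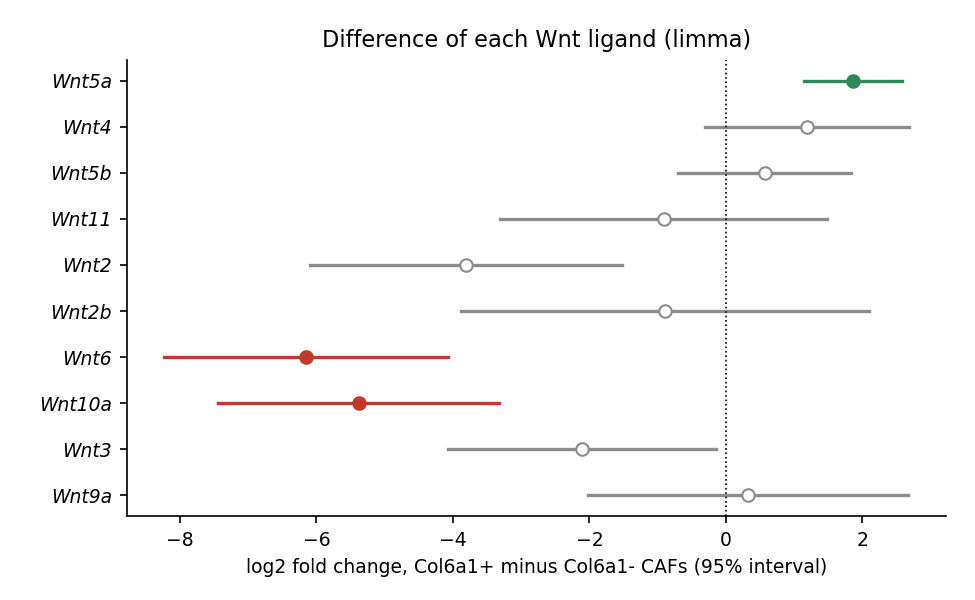
Log2 fold change of each Wnt ligand on the horizontal axis, Col6a1+ minus Col6a1- CAFs, with its 95% interval from limma (3 libraries a group, not adjusted for the number of genes). Filled points passed an adjusted p of 0.05, green higher and red lower in Col6a1+ CAFs. The intervals of Wnt5a, Wnt6, Wnt10a, Wnt2 and Wnt3 lie to one side of 0, and the last pair did not pass after adjustment over 26402 genes.

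The largest differences were those of Wnt6 and Wnt10a, ligands that act mainly through β-catenin in epithelia such as skin. They are neighbors on chromosome 1 and both on the plus strand, with Wnt6 (ENSMUSG00000033227) at mm10 chr1:74771892-74785322 and Wnt10a (ENSMUSG00000026167) at chr1:74791516-74804179. No gene of the table lies in the 6193 bases between them. Wnt6 had 0, 13 and 15 normalized counts in Col6a1+ CAFs and 616, 266 and 489 in Col6a1- CAFs. Wnt10a had 0, 10 and 12 in Col6a1+ and 335, 127 and 240 in Col6a1- CAFs. For both genes, the lowest Col6a1- library was many times the highest Col6a1+ library, and the Col6a1- libraries ranked replicate 1, replicate 3, replicate 2. The log2 fold change of Wnt6 was -6.15 (standard error 0.94, 95% interval -8.23 to -4.07, limma adjusted p = 0.00546) and that of Wnt10a was -5.38 (standard error 0.93, 95% interval -7.44 to -3.32, limma adjusted p = 0.01). With the replicate block the adjusted p was 0.0974 for Wnt6 and 0.115 for Wnt10a. Neither passed when any 1 of the Col6a1- libraries was left out (limma adjusted p = 0.0824 to 0.153), and both passed without any 1 of the Col6a1+ libraries. Without Col6a1+ replicate 1, which held 0 for both, the log2 fold change was -4.85 for Wnt6 and -4.19 for Wnt10a, and over all leave-outs it ran from -6.85 to -4.85 and from -6.04 to -4.19. With a pseudocount of 0.1 the call of Wnt10a was lost (limma adjusted p = 0.0666). For each count of Wnt6 there were 0.544, 0.477 and 0.491 counts of Wnt10a in Col6a1- CAFs, and 0.769 and 0.80 in the 2 Col6a1+ libraries with any.

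The summed epithelial marker counts were, like Wnt6 and Wnt10a, higher in Col6a1- than in Col6a1+ CAFs. Per 1000 epithelial marker counts, Wnt6 stood at 0, 2.02 and 2.29 in Col6a1+ and at 30.0, 7.62 and 19.4 in Col6a1- CAFs, and Wnt10a at 0, 1.55 and 1.83 against 16.3, 3.64 and 9.52. Both were apart between the subsets on this scale, which was chosen after seeing the data. The part of epithelial cells in the level of either ligand was not tested. Among the Col6a1- libraries, replicate 2 had the most epithelial marker counts (34925) and the fewest counts of Wnt6 and Wnt10a, and replicate 1 had the fewest epithelial marker counts (20524) and the most of both ligands. Single markers differed in this. In Col6a1- CAFs, Cdh1 (10493, 15452 and 11963) ranked the libraries as the sum did, while Krt18 (1754, 1921 and 2234) did not. Per 1000 pan-fibroblast marker counts, Wnt6 stood at 0, 0.319 and 0.364 against 44.7, 19.6 and 71.9. Those markers were lower in every Col6a1- library, so this scale could only widen the gap.

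**Figure D3:**
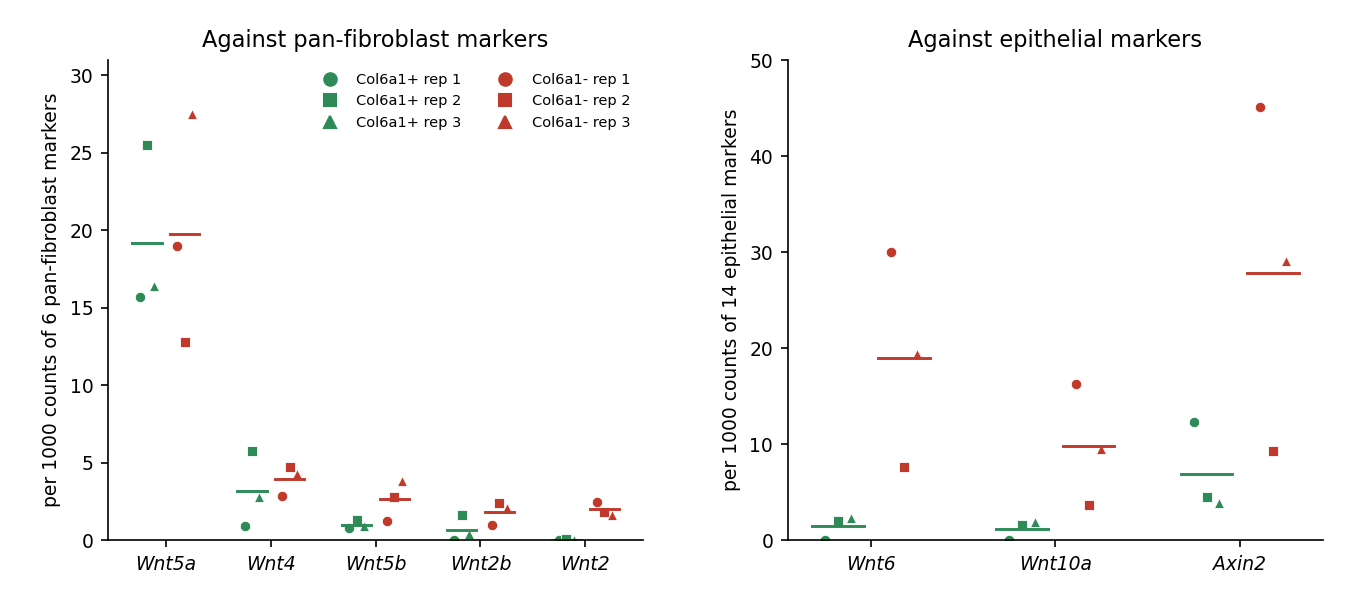
Ligand counts within each library per 1000 counts of 6 pan-fibroblast markers (left) and of Wnt6, Wnt10a and the Wnt target Axin2 per 1000 counts of 14 epithelial markers (right), in Col6a1+ (green) and Col6a1- (red) CAFs, with bars at the mean of 3 libraries. On the left, Wnt5a and Wnt4 overlap between the subsets, on a scale that could only narrow or reverse their gaps. Wnt2, whose gap this scale could only widen, does not overlap. On the right Wnt6 and Wnt10a are apart while Axin2 overlaps, on a scale that could only narrow or reverse their gaps.

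Wnt2 (ENSMUSG00000010797, chr6:17988940-18030585, minus strand), another β-catenin ligand made by intestinal stroma, had 0, 3 and 0 normalized counts in Col6a1+ and 34, 25 and 11 in Col6a1- CAFs. The Col6a1+ libraries all lay below the lowest Col6a1- value, yet the log2 fold change of -3.80 (standard error 1.03) missed the threshold (limma adjusted p = 0.0678) and passed under 2 of 14 alternatives, limma-voom (0.0101) and quality weights per library (0.0375). Taken as sums, Col6a1- CAFs had 70 and Col6a1+ CAFs 3 counts, a ratio of 23.3 (exact 95% interval 7.95 to 120, counting error only). Per 1000 pan-fibroblast marker counts, Wnt2 stood at 0, 0.0736 and 0 against 2.47, 1.84 and 1.62, a scale that could only widen its gap. Per 1000 epithelial marker counts it stood at 0, 0.466 and 0 against 1.66, 0.716 and 0.436, where the ranges overlapped, a scale that could only narrow or reverse its gap. Trophocyte marker sums were likewise higher in Col6a1- CAFs, with 2 of the 6 genes passing, and their part in the level of Wnt2 was not tested.

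The promoter of Wnt6 is shown because, of the 10 ligands, it had the largest log2 fold change in size. RefSeq's promoter table held entries for 8 of the 10 ligands, Wnt5a and Wnt10a being those not matched. The stretch is the 250 bases before the annotated start in GRCm38.p6, the assembly of mm10, at chr1:74771642-74771891, read 5′ to 3′ on the plus strand. Capitals mark the GC box letters GGGCGG on either strand, the site type bound by Sp1 and its relatives.
Wnt6: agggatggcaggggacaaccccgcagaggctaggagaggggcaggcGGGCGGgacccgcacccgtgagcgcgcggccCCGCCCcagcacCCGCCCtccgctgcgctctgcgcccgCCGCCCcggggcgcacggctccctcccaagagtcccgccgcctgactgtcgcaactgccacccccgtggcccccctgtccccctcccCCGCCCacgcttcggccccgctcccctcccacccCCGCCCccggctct
It held 6 such matches and a GC content of 79.6%. Of 32851 promoter windows of this length, 32.7% held the GC box letters. The letters CTTTGA, a short form of the TCF/LEF site searched on both strands, were not in this window and were in 13.8% of all windows. These are matches of letters only.

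The remaining β-catenin ligands did not pass the test. Wnt2b (ENSMUSG00000027840, chr3:104945272-104961921, minus strand), a relative of Wnt2 that sustains intestinal stem cells, had 0, 67 and 15 normalized counts in Col6a1+ and 13, 32 and 14 in Col6a1- CAFs. Its highest and its lowest value were both in Col6a1+ libraries. The log2 fold change was -0.89 (95% interval -3.88 to 2.10, limma adjusted p = 0.725) and turned to 0.79 without Col6a1+ replicate 1. Wnt3 (ENSMUSG00000000125, chr11:103774150-103817957, plus strand), in the small intestine a product of Paneth cells, had 0, 1 and 0 against 9, 7 and 1. Col6a1- CAFs held 17 counts and Col6a1+ CAFs 1, a ratio of 17.0 (exact 95% interval 2.76 to 737, counting error only), and the ranges touched at 1 count. It did not pass (log2 fold change -2.11, standard error 0.89, limma adjusted p = 0.268). Wnt9a (ENSMUSG00000000126, chr11:59306928-59333552, plus strand), a ligand of the joints and the blood stem cell niche, had 44, 5 and 9 against 32, 6 and 5. Replicate 1 was the highest in both subsets. The log2 fold change of 0.32 (95% interval -2.02 to 2.67, limma adjusted p = 0.883) turned to -0.53 without Col6a1+ replicate 1, to -0.02 without Col6a1- replicate 2 and to -0.13 without Col6a1- replicate 3.

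Around the ligands, 73 genes of the pathway were followed in 9 lists, of which 69 had a count. Of these, 3 were higher and 15 lower in Col6a1+ CAFs, beside 2.66% and 1.96% of all genes tested. Their median log2 fold change was -0.67, beside -0.27 for all genes tested. With the replicate block none of the 18 passed (limma adjusted p = 0.0612 to 0.162), and in the blocked fit restricted to genes averaging 10 or more, 17 of them did, all but Wnt7a. Without Col6a1+ replicate 1, 12 of the 18 passed, and the calls of Wnt7a, Prickle2, Tcf7, Dkk2, Znrf3 and Lgr5 ended (limma adjusted p = 0.0541 to 0.109). Without Col6a1+ replicate 2, 11 passed, without Col6a1+ replicate 3, 8, without Col6a1- replicate 2, 6, and without Col6a1- replicate 1 or without Col6a1- replicate 3 none did (limma adjusted p = 0.0603 to 0.316).

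**Figure D4:**
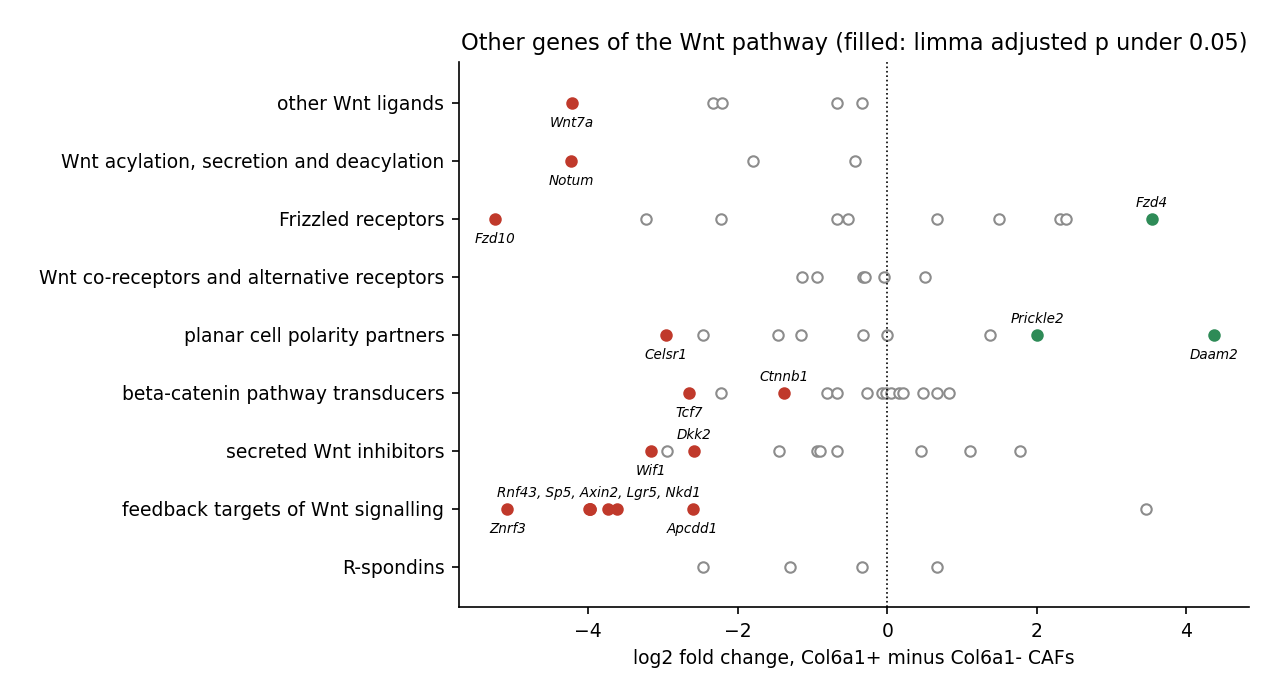
Log2 fold changes, Col6a1+ minus Col6a1- CAFs, of the 69 pathway genes with a count, by list. Filled points passed a limma adjusted p of 0.05 and carry their gene symbol. The feedback targets hold 7 of the 15 genes that were lower in Col6a1+ CAFs, and Fzd4, Prickle2 and Daam2 were higher.

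Of the 9 other Wnt ligands, Wnt1, Wnt3a, Wnt8a and Wnt9b had 0 counts in every library, and 1 of the 5 with a count passed. Wnt7a, a ligand of neural and female reproductive tissue, had 0, 0 and 1 normalized counts in Col6a1+ and 36, 9 and 34 in Col6a1- CAFs. The Col6a1- sum of 79 counts was 79.0 times the Col6a1+ sum (exact 95% interval 14.3 to 3278.9, counting error only), with a log2 fold change of -4.22 (limma adjusted p = 0.0395). This call was lost with the replicate block (limma adjusted p = 0.104, and 0.0557 over genes averaging 10 or more). It was also lost with a pseudocount of 0.1 and when any 1 library was left out (limma adjusted p = 0.0644 without Col6a1+ replicate 1). Wnt7b, its close relative in lung and kidney epithelium, had 4, 1 and 11 against 33, 24 and 13, ranges that did not overlap, and did not pass (log2 fold change -2.21, limma adjusted p = 0.288). Wnt16, named after its values were seen, had 0 in every Col6a1+ library and 0, 7 and 15 in Col6a1- CAFs. It did not pass (log2 fold change -2.33, limma adjusted p = 0.28), and the ranges touched at 0. The Col6a1- sum of 22 was 7.33 times the 3 counts that a level of 0 allows, with the error of that sum left out.

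Among the genes that process Wnt proteins, Notum, a secreted esterase that removes their lipid, was lower in Col6a1+ CAFs. It had 63, 18 and 56 normalized counts in Col6a1+ and 1453, 393 and 793 in Col6a1- CAFs (log2 fold change -4.23, standard error 0.57). Porcn, the enzyme that attaches the lipid, had 0, 52 and 43 against 86, 45 and 23, and Wls, the carrier that brings Wnt proteins to the cell surface, had 269, 617 and 457 against 388, 363 and 1337. Neither passed, with log2 fold changes of -1.79 and -0.44, and their ranges overlapped. Without Col6a1+ replicate 1, which held the only 0, the log2 fold change of Porcn turned to 0.08, and that of Wls was -0.11.

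Of the 10 Frizzled receptors, 1 was higher and 1 lower in Col6a1+ CAFs. Fzd4, a receptor of vessels and mural cells that also binds Norrin, had 246, 106 and 169 normalized counts in Col6a1+ and 15, 11 and 14 in Col6a1- CAFs (log2 fold change 3.54, standard error 0.49, limma adjusted p = 0.00349). Fzd10 had 0, 4 and 3 against 89, 72 and 165 (log2 fold change -5.24, standard error 0.85, limma adjusted p = 0.00718). The ranges of the subsets did not overlap for 5 receptors in the higher and 3 in the lower direction, beside 7.91% and 11.6% of all genes tested. Fzd7, a stem cell receptor of the crypt, and Fzd8 had log2 fold changes of 2.39 and 2.31 that did not pass (limma adjusted p = 0.11 and 0.0886). Fzd5, an epithelial receptor, had 9, 45 and 19 against 80, 110 and 104 normalized counts and did not pass either (log2 fold change -2.23, limma adjusted p = 0.068). Fzd5 passed as lower in the blocked fit over genes averaging 10 or more (limma adjusted p = 0.0306), with limma-voom (0.0442) and with quality weights (0.0439). Fzd8 passed as higher with quality weights (limma adjusted p = 0.0454). The pericyte and epithelial marker sums moved in the same directions as Fzd4 and Fzd10, and their part was not tested.

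Of the 6 co-receptors and alternative receptors, 0 passed by limma, 0 by limma-voom and 0 with the block or with quality weights. At an unadjusted p under 0.05 there were 0 by limma and by limma-voom and 1 with quality weights. The smallest p was that of Ryk, a receptor of Wnt5a, with 409, 719 and 711 normalized counts in Col6a1+ and 411, 442 and 401 in Col6a1- CAFs (log2 fold change 0.51, 95% interval -0.17 to 1.19). Ror2, the receptor best known for Wnt5a, had 0, 76 and 31 against 28, 44 and 19 (log2 fold change -1.14, 95% interval -4.15 to 1.88), and Lrp6 had 178, 91 and 92 against 152, 129 and 148 (log2 fold change -0.32). Their ranges overlapped, and without Col6a1+ replicate 1 the log2 fold change of Ror2 turned to 0.74. Of the 9 planar cell polarity partners, Daam2, a formin that links Dishevelled to actin, had 271, 98 and 153 against 16, 6 and 3 (log2 fold change 4.36, standard error 0.68, limma adjusted p = 0.00588). Prickle2, a cytoplasmic polarity protein, had 290, 131 and 277 against 61, 57 and 45 (log2 fold change 2.00, limma adjusted p = 0.0225). Celsr1, a polarity cadherin of epithelia, was lower, with 21, 14 and 15 against 232, 88 and 118 (log2 fold change -2.96, limma adjusted p = 0.0106). Prickle1 (log2 fold change 1.37), Vangl2 (-1.15) and Daam1 (-0.32) did not pass, and without Col6a1+ replicate 1 Vangl2 turned to 0.22.

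Of the 14 transducers, 2 were lower in Col6a1+ CAFs. Ctnnb1, which encodes β-catenin and also serves at adherens junctions, had 3281, 2567 and 2354 normalized counts in Col6a1+ and 7321, 5792 and 8141 in Col6a1- CAFs (log2 fold change -1.37, standard error 0.28). Tcf7, a TCF/LEF factor that is itself a target of the pathway, had 11, 17 and 19 against 163, 60 and 106 (log2 fold change -2.65, standard error 0.55, limma adjusted p = 0.023). Its relatives Lef1 (log2 fold change -2.22, limma adjusted p = 0.0734), Tcf7l1 (0.83) and Tcf7l2 (-0.80) did not pass, and all other members lay between -0.67 and 0.67.

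Of the 10 secreted inhibitors, 2 were lower and 0 higher in Col6a1+ CAFs. Wif1, which binds Wnt proteins, had 92, 353 and 172 normalized counts in Col6a1+ and 1774, 1226 and 1869 in Col6a1- CAFs (log2 fold change -3.16, standard error 0.44). Dkk2, a ligand of Lrp5 and Lrp6, had 19, 26 and 85 against 288, 133 and 257 (log2 fold change -2.58, limma adjusted p = 0.0309, and 0.109 without Col6a1+ replicate 1). Frzb, a soluble Frizzled-related protein, had 0, 197 and 97 against 238, 269 and 138 (log2 fold change -2.95, standard error 1.54) and overlapped, as did Sfrp2 (-0.94) and Sfrp1 (-0.90). Without Col6a1+ replicate 1, which held 0 for Frzb, these were -0.58 for Frzb, -0.23 for Sfrp2 and -0.82 for Sfrp1. The 4 R-spondins had at most 13 normalized counts in any library, and 0 passed by limma or limma-voom. At an unadjusted p under 0.05 there was 1 by either tool, by limma Rspo3, named after its values were seen, with 0, 1 and 0 against 11, 13 and 1.

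Feedback targets are genes that β-catenin signalling switches on and whose products damp it or mark responding cells. Of 8 such targets, 7 were lower in Col6a1+ CAFs (5 of them without Col6a1+ replicate 1, 0 with the block, and 7 with the block over genes averaging 10 or more), beside 1.96% of all genes tested. All 8 averaged 10 or more normalized counts, and of the 13515 such genes 496 were lower. The list was chosen with earlier results of these data known. The median log2 fold change of the 8 was -3.85, beside -0.27 for all genes. Axin2, a scaffold of the β-catenin destruction complex, had 73, 29 and 25 normalized counts in Col6a1+ and 925, 324 and 733 in Col6a1- CAFs (log2 fold change -3.97, standard error 0.51). Nkd1, an inhibitor of Dishevelled, had 214, 173 and 248 against 4567, 1314 and 2842 (log2 fold change -3.61, standard error 0.42). Rnf43 and Znrf3, ubiquitin ligases that remove Frizzled from the surface, had log2 fold changes of -3.99 and -5.08, and without Col6a1+ replicate 1, where Znrf3 was at 0, that of Znrf3 was -3.41 and did not pass (limma adjusted p = 0.0688). Those of Apcdd1, a membrane inhibitor, Lgr5, the R-spondin receptor of crypt stem cells, and Sp5, a transcription factor, were -2.60, -3.73 and -3.98. Nkd2, the relative of Nkd1, stood at 184, 76 and 130 against 32, 20 and 1, and did not pass (log2 fold change 3.47, limma adjusted p = 0.0689). It passed as higher in the blocked fit over genes averaging 10 or more (limma adjusted p = 0.0305), with limma-voom (0.0358) and with quality weights (0.0357). In the Col6a1- libraries Axin2, Nkd1, Rnf43, Apcdd1 and Sp5 ranked replicate 1, replicate 3, replicate 2, the order of Wnt6 and Wnt10a. Outside this list, Notum, Celsr1 and Tcf7 had it too. So few libraries allow few orders, and the share of all genes with this order is not given here, so it shows no link between ligand and target. Znrf3 (285, 197 and 696) and Lgr5 (75, 74 and 133) were highest in replicate 3, and Nkd2 ranked replicate 1, replicate 2, replicate 3. Per 1000 epithelial marker counts, Axin2 stood at 12.3, 4.51 and 3.82 in Col6a1+ and at 45.1, 9.28 and 29.1 in Col6a1- CAFs, and the ranges overlapped. The summed epithelial markers were higher in every Col6a1- library, so this scale could only narrow or reverse the gap. Lgr5 and the epithelial receptors and markers above are transcripts that epithelial crypt cells also carry, and the part of such cells in these values was not tested.

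**Figure D5:**
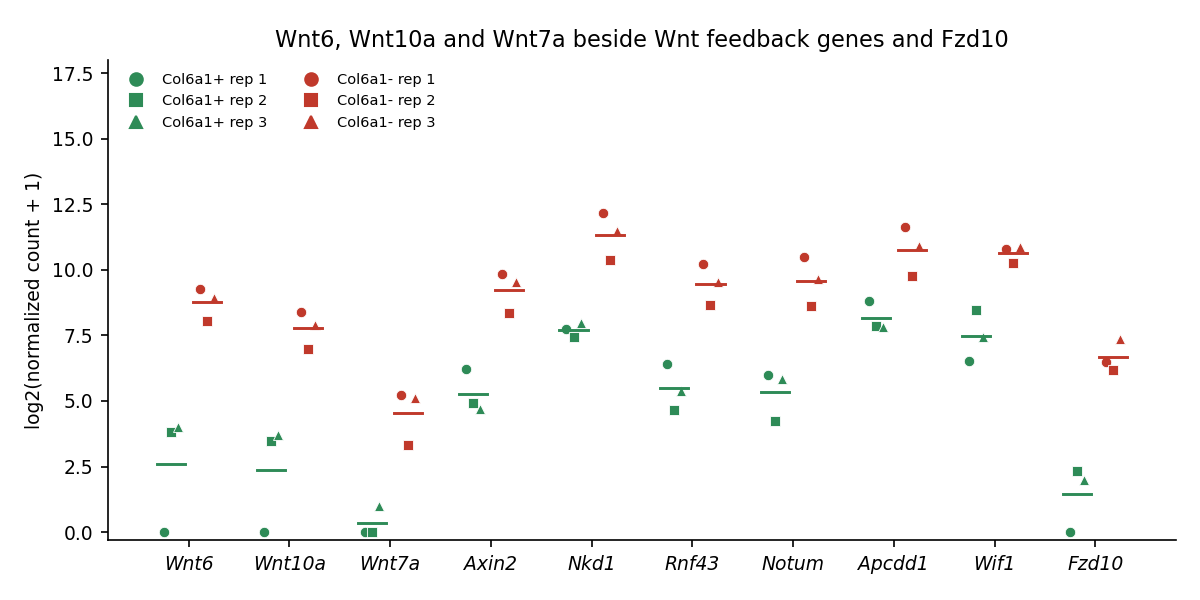
Wnt6, Wnt10a and Wnt7a beside Wnt feedback genes (Axin2, Nkd1, Rnf43, Apcdd1), the esterase Notum, the inhibitor Wif1 and the receptor Fzd10, as log2(normalized count + 1) in each Col6a1+ (green) and Col6a1- (red) CAF library, with bars at the mean of 3 libraries. The genes shown are a selection. For each of them, every Col6a1- library lies above every Col6a1+ library. The feedback target Nkd2, not shown, was higher in every Col6a1+ library.

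As a description of pattern, the ligand with the highest mean in each subset was compared with 11811 protein-coding genes averaging 10 or more normalized counts, by Pearson's r of log2 values over the 6 libraries. The 6 points share the division into 2 subsets, so any gene that differs between them correlates, and 85 genes had an r over 0.95 with Wnt5a and 356 with Wnt6. Those most like Wnt5a were Amotl2 (r = 0.9963), an angiomotin family protein of cell junctions, Gadd45b (0.9909), a stress response gene, Szrd1 (0.9859), Pip4k2a (0.9852), a phosphoinositide kinase, and Vasn (0.9851), a membrane protein that binds TGF-β. Amotl2 had 135, 197 and 141 normalized counts in Col6a1+ and 52, 36 and 40 in Col6a1- CAFs. Those most like Wnt6 were its neighbor Wnt10a (r = 0.9993), Tmem184a (0.9988), Dock9 (0.9976), Large2 (0.9974) and Pnliprp2 (0.9972), a lipase relative with 0, 18 and 17 normalized counts in Col6a1+ and 1918, 1090 and 1777 in Col6a1- CAFs. For all 5 of these, Col6a1+ replicate 1 held 0 counts.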

How the data were processed

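The 6 libraries were 3′ mRNA libraries (QuantSeq, Ion Proton). The authors mapped reads with TopHat2 and then Bowtie2 to mm10, and used GenomicRanges and DESeq through metaseqR to count reads per gene and test them. The method that gave the normalized counts is not given in the sources used here. The authors deposited 1 table that gives, per library, log2 values of normalized counts to which 1 had been added, of which 100% were whole normalized counts (tolerance 1e-06). Read totals per library are not used here. Exact intervals and limits from counts treat normalized counts as if they were reads. They cover counting error only and leave out the spread between libraries. Its p-values, false discovery rates, fold changes and group means, and 6 further columns of per-sample values, were not used. Whether counting used strand is not given in the sources used here.

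Genes with at least 1 normalized count in total were tested with limma 3.58.1 in R 4.3.3 (lmFit, eBayes with trend), two-sided, with Benjamini-Hochberg adjustment over 26402 genes and a threshold of 0.05. The labels do not say that libraries are separate animals beyond their replicate number, so p-values measure the spread between these pools. No 2 libraries were identical. Deviations from the subset mean, over 13515 genes with a mean of at least 10, were correlated between libraries. Libraries of one number had r = 0.245, 0.125 and 0.144 for replicates 1, 2 and 3. Those of different numbers had -0.245 to 0.15, a range that holds the values of replicates 2 and 3. The study describes a total of 3 samples, each a pool of tumors from several mice, and sorted both subsets from adenomas. Libraries of one number may therefore share mice, which the main fit ignores. The labels do not state this and these correlations do not settle it, so the replicate block is given beside the results it changes. Named in each list were all genes that passed and the 3 others with the largest absolute log2 fold change at a mean of at least 10. The fit was tested on simulated data. The members and gene lists were chosen with earlier results of these data known. Alternatives were a pseudocount of 0.1, other filters, equal library sums, limma-voom, quality weights, the block and leaving out each library. Gene positions were compared with GENCODE on GRCm38, where the ends of all 10 ligands matched within 1 base.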

Additional observations from a re-analysis of the deposited data

How the results depend on the processing

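Over the 10 ligands and their alternatives, 110 log2 fold changes kept their direction and side of the threshold, 18 lost the threshold, 2 gained it and 6 changed sign. Against 1 ligand higher and 2 lower in Col6a1+ CAFs, there were 0 and 0 with no filter on low values, 0 and 0 with the replicate block, 1 lower (Wnt6) with a pseudocount of 0.1 and 4 lower at a looser threshold (unadjusted p under 0.05 and a change over 1 on the log2 scale). Leaving out 1 library gave 0 to 1 higher and 0 to 2 lower. Against 3 pathway genes higher and 15 lower, there were 0 and 0 with no filter, 0 and 0 with the block, 5 higher with quality weights and 8 higher at the looser threshold, and leaving out 1 library gave 0 to 3 higher and 0 to 10 lower. A leave-out fit has 2 libraries in 1 group. Wnt2b changed sign with quality weights (0.15) and without Col6a1+ replicate 1 (0.79), and ran from -2.25 to 0.79 as each library was left out. Wnt9a did so with quality weights (-0.15) and without Col6a1+ replicate 1 (-0.53), Col6a1- replicate 2 (-0.02) or Col6a1- replicate 3 (-0.13), and ran from -0.53 to 1.10. The cause was not tested. The unfiltered fit adjusts over 49548 genes, and the unadjusted p of the 3 called ligands was also larger in it. By limma it was 0.0012 to 0.00423 there, beside 5.19e-05 to 0.00016 in the main fit. Leave-out fits hold fewer libraries. Equal library sums changed no call of a ligand. Ligands at 0 to 15 normalized counts lie near the limit of 3 counts that a 0 allows, and Col6a1+ replicate 1, with the fewest genes, sets most of their zeros.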
